A study of Mus musculus with 8 samples.

Results

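MHC class I molecules and the proteins that load them with peptide were measured as 20 probe sets of the Affymetrix MG U74Av2 array, out of 12422 probe sets tested. The probe sets were those whose annotation symbol is or includes H2-K1, H2-D1, H2-L, H2-Q7, H2-T23, H2-T10, B2m, Tap1, Tap2 or Tapbp. Of these 10 genes, 9 had a probe set, and H2-L was named by none. The annotation gave 13 of the 20 probe sets 1 gene symbol and 7 several, and H2-Q7, H2-T23 and H2-T10 were only on shared probe sets. Whole spinal cord was taken from female SJL/J mice, aged 8 to 12 weeks, with experimental autoimmune encephalomyelitis (EAE, 5 arrays) or as healthy controls (3 arrays), and RNA of 2 animals was pooled for each array. EAE was induced with a PLP peptide (proteolipid protein, a myelin protein) injected under the skin of the flank, and control mice received the vehicle. The paper's methods for EAE also give Complete Freund's Adjuvant with mycobacteria and injections of pertussis toxin, and call the array controls healthy. Where control mice did not receive these agents, their effects and EAE cannot be told apart. EAE mice had an average grade of 2.5 and were killed on day 14 (arrays 1 and 4), day 12 to 14 (array 2), day 17 (array 3) and day 15.5 (array 5). These grades, and the age of 8 to 12 weeks, are those of the labels. The paper's array methods instead give a range of grades from 2.5 upward and an age of 8 weeks. EAE mice also received murine serum albumin into a vein 3 hours before death and control mice are given no such injection in the labels, so EAE and albumin cannot be told apart. Batch equals the replicate number, so batches 1, 2 and 3 held 1 array of each group, and batches 4 and 5 an EAE array alone. The comparison asks which transcripts differ between the inflamed and the healthy cord. Separate pools were the unit of replication.

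Classical class I molecules (H2-K, H2-D and, in some mouse strains, H2-L) carry peptides from inside the cell to its surface, where CD8+ T cells read them. The heavy chain folds with beta-2 microglobulin, and the TAP transporter, held to the empty heavy chain by tapasin, brings peptides made by the proteasome into the endoplasmic reticulum. Neurons and glia of the healthy cord carry little class I on their surface, and interferons raise its transcription in most cell types.

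Of the 20 class I probe sets, 17 were higher in EAE than in control cords at an adjusted p under 0.05 (85% of them, against 8.26% of all probe sets), 3 were not called, and none was lower (0, against 11.4% of all probe sets). All 9 genes with a probe set were higher by the probe set that stood for each, the one with the highest mean over all arrays. That mean includes the EAE arrays, and with the probe set of highest control mean 7 of 9 were called, since Tap1 and H2-Q7 were then read from the uncalled 162278_r_at and 97174_r_at. Their differences ran between 1.93 (Tapbp) and 4.34 (H2-T23) on the log2 scale, with a median of 3.06, against a median of -0.05 over all probe sets. The median was 3.50 for the 5 heavy chain genes and 2.44 for the 4 assembly genes B2m, Tap1, Tap2 and Tapbp. By the probe set of highest control mean the assembly median was 1.34 and that of all 9 genes 2.14. In 18 of the 20 probe sets every EAE array was above every control array, as in 10.9% of all probe sets. Of the 17 called probe sets, 16 were at least 2-fold higher, and the share of all probe sets that were so was not counted. Probe sets of 1 gene, and heavy chain probe sets that share sequence, are not independent of each other. The RNA is that of the whole cord, so more cells that express a gene and more RNA per cell cannot be told apart.

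Promoter sequences are shown because H2-K1, H2-D1 and H2-Q7 share sequence there. The part of this sequence in the differences was not tested. RefSeq windows (GRCm38.p6, C57BL/6J reference, 250 bases before to 50 after the start) were found for 7 of the 10 genes. They were searched on both strands for GAAANNGAA and GAANNGAAA, 2 spacings of the core of the interferon-stimulated response element, for GGGANNNCC, which resembles an NF-kappaB site, and for TGACGC, which resembles the CRE-like part of the class I promoter module. The GAANNGAAA spacing was added after the promoters had been read. Each stretch below runs 5′ to 3′ along the gene's strand, and capitals mark the matches.
H2-K1 (chr17:34000368-34000488, minus strand): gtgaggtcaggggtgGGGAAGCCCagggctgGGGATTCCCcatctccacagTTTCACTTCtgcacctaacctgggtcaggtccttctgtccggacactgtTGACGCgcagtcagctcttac
H2-D1 (chr17:35262893-35263013, plus strand): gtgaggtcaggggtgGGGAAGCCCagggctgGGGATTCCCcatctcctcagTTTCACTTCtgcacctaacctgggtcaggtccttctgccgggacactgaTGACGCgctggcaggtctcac
H2-Q7 (chr17:35438992-35439065, plus strand): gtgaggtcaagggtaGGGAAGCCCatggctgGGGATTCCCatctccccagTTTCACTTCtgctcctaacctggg
H2-T23 (chr17:36032801-36032839, minus strand): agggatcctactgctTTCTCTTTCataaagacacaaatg
B2m (chr2:122147533-122147571, plus strand): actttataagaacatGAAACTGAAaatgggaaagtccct

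The H2-K1 and H2-D1 stretches were identical at 113 of 121 positions, and H2-Q7 had the same order of a pair of GGGANNNCC matches followed by TTTCACTTC, which is GAANNGAAA on the other strand. GAANNGAAA was in H2-K1, H2-D1 and H2-Q7 and in 7.52% of 32851 RefSeq windows, and GAAANNGAA was in B2m and H2-T23 and in 8.56%. GGGANNNCC was in the same 3 genes as GAANNGAAA and in 18.6% of windows, and its downstream match there, GGGATTCCC, reads as a match on both strands. TGACGC was in H2-K1 and H2-D1 and in 7.4% of windows. The windows of Tap1 and Tapbp held none of these letters. No match overlapped that of another motif. A match describes letters in a window of the C57BL/6J reference, and SJL/J mice carry another H2 haplotype.

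H2-K1, a classical heavy chain, had 3 probe sets of its own, and all were higher in EAE. Probe set 93120_f_at had log2 signals of 11.44, 11.29, 12.12, 11.56 and 11.25 on EAE arrays 1 to 5, against 8.35, 7.82 and 8.19 on control arrays 1 to 3. The groups lay 2.90 apart at their closest, and EAE array 3 was the highest. The signal was 11.3-fold higher in EAE (95% confidence interval 8.45 to 15.1, log2 difference 3.50, standard error 0.163, adjusted p = 0.000488 by limma with batch). Within batches 1, 2 and 3 the log2 difference was 3.09, 3.48 and 3.92. Probe set 97700_at had log2 signals of 10.41, 9.99, 10.67, 10.56 and 10.03 in EAE and 7.74, 7.46 and 7.75 in control cords, a log2 difference of 2.71 (standard error 0.0944). Probe set 97125_f_at had 9.19, 8.90, 10.05, 9.14 and 8.68 in EAE and 6.52, 6.32 and 6.44 in control cords, a log2 difference of 2.95 (standard error 0.217). Both were without overlap, and array 3 was again the highest EAE array in each.

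H2-D1, the other classical heavy chain measured, also had 3 probe sets of its own, and all were higher. Probe set 97540_f_at had log2 signals of 10.51, 10.40, 11.37, 10.57 and 10.29 on EAE arrays 1 to 5, against 7.35, 6.99 and 7.39 on control arrays 1 to 3. EAE array 3 stood apart from the other EAE arrays, which lay between 10.29 and 10.57. The signal was 11.4-fold higher in EAE (95% confidence interval 8.54 to 15.3, log2 difference 3.51, standard error 0.164, adjusted p = 0.000488). Probe set 97541_f_at had 10.44, 9.80, 10.81, 10.52 and 9.99 in EAE and 6.88, 6.33 and 6.32 in control cords, a log2 difference of 3.84 (standard error 0.215). Probe set 101886_f_at had 9.51, 9.34, 10.83, 9.28 and 8.59 in EAE and 7.05, 6.59 and 6.74 in control cords, a log2 difference of 3.10 (standard error 0.322). The groups did not overlap in either, and the EAE arrays were more spread in 101886_f_at (SD 0.817) than in 97541_f_at (SD 0.413).

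The suffix _f_at marks a probe set designed on a family of similar sequences, so a set annotated with 1 heavy chain gene may also take up transcripts of others. Of the 20 probe sets, 8 had this suffix. Probe set 102161_f_at is annotated with 10 genes, among them H2-T23, H2-K1 and H2-D1. It had log2 signals of 8.30, 8.24, 9.75, 8.03 and 7.38 in EAE and 5.84, 5.27 and 5.47 in control cords, a log2 difference of 3.24 (standard error 0.345, adjusted p = 0.00531).

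**Figure D1:**
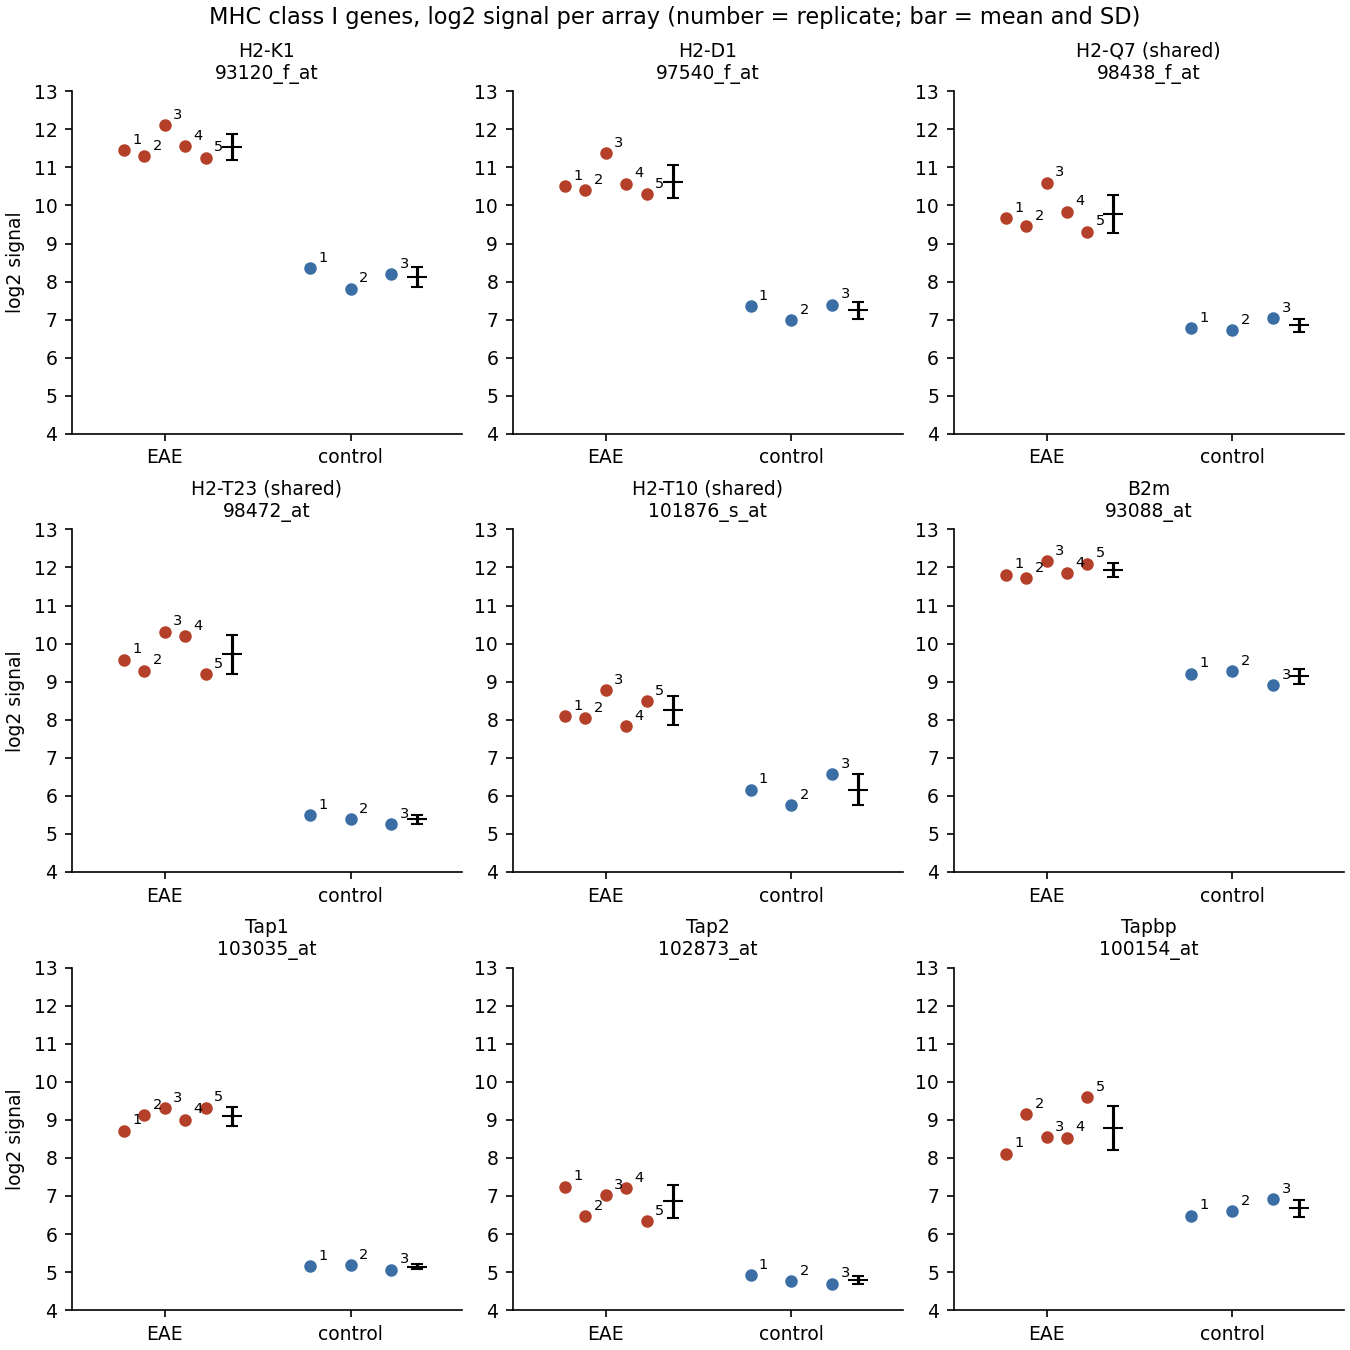
Log2 signal (y axis) of the probe set that stands for each of the 9 measured genes, by group (x axis, 5 EAE arrays then 3 control arrays), with each array a point numbered by replicate and the bar the group mean with its SD. In each panel all EAE points lie above all control points, and EAE array 3 is the highest EAE point for the 5 heavy chain genes.

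Among the non-classical heavy chains, H2-T23 (Qa-1, which presents leader peptides of other class I molecules to CD94/NKG2 receptors) had the largest difference of all 20 probe sets. Probe set 98472_at, shared with the pseudogene H2-T-ps, had log2 signals of 9.58, 9.29, 10.31, 10.20 and 9.20 on EAE arrays 1 to 5, against 5.50, 5.396 and 5.26 on control arrays 1 to 3. EAE arrays 3 and 4 were the highest, and the lowest EAE array lay 3.70 above the highest control array. The signal was 20.3-fold higher in EAE (95% confidence interval 13.3 to 30.8, log2 difference 4.34, standard error 0.236, adjusted p = 0.000777). It ranked 20 among the 12422 probe sets by log2 difference.

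H2-Q7 (Qa-2, a class I molecule with a lipid anchor) was measured by probe set 98438_f_at, shared with H2-Q9 and H2-Q5. Its log2 signals were 9.66, 9.45, 10.60, 9.84 and 9.31 in EAE and 6.78, 6.72 and 7.04 in control cords, without overlap. The signal was 8.32-fold higher in EAE (95% confidence interval 6.12 to 11.3, log2 difference 3.06, standard error 0.173, adjusted p = 0.000838). A pair of other shared probe sets that include H2-Q7 were not called. Probe set 97174_r_at, shared between H2-Q9, H2-Q7, H2-Q10 and H2-K1, had 7.04, 6.995, 7.40, 7.06 and 7.08 in EAE and 6.75, 6.90 and 6.89 in control cords. Its groups did not overlap, but the log2 difference of 0.30 did not pass (95% confidence interval 0.05 to 0.55, adjusted p = 0.101). Probe set 95773_at, shared between H2-Q9, H2-Q7, H2-Q4, H2-Q1 and H2-D1, had 4.18, 4.14, 4.19, 4.39 and 4.34 in EAE and 4.11, 4.19 and 4.32 in control cords, and the groups overlapped (log2 difference -0.04, 95% confidence interval -0.23 to 0.15, adjusted p = 0.774).

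H2-T10 (with H2-T22 a molecule that some gamma-delta T cells recognise) was on 2 probe sets, both shared with H2-T9 and H2-T22, and RefSeq lists it as a transcribed pseudogene in C57BL/6J. Probe set 101876_s_at had log2 signals of 8.10, 8.05, 8.79, 7.83 and 8.49 in EAE and 6.17, 5.75 and 6.58 in control cords. Probe set 93865_s_at had 7.39, 7.44, 7.83, 7.12 and 7.63 in EAE and 5.93, 5.73 and 5.73 in control cords. Both separated the groups, and in both EAE array 3 was the highest and array 4 the lowest. The differences of 2.14 (standard error 0.0932, adjusted p = 0.000422) and 1.76 (standard error 0.133, adjusted p = 0.00194) on the log2 scale were the smallest among the called heavy chain probe sets.

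B2m, the light chain of every class I molecule, had 1 probe set, 93088_at. Its log2 signals were 11.81, 11.73, 12.17, 11.84 and 12.10 on EAE arrays 1 to 5, against 9.21, 9.29 and 8.91 on control arrays 1 to 3. The EAE arrays lay close together (SD 0.193) and far above the controls. The signal was 6.80-fold higher in EAE (95% confidence interval 5.04 to 9.18, log2 difference 2.77, standard error 0.169, adjusted p = 0.00102).

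Tap1 and Tap2, which pair to form the peptide transporter, were both higher. Tap1 probe set 103035_at had log2 signals of 8.72, 9.12, 9.30, 9.01 and 9.32 in EAE and 5.16, 5.19 and 5.06 in control cords. It was 14.98-fold higher in EAE (95% confidence interval 11.7 to 19.2, log2 difference 3.91, standard error 0.139, adjusted p = 0.000285), and EAE array 1 was the lowest of its group. The other Tap1 probe set, 162278_r_at, had 6.18, 6.02, 6.58, 6.28 and 6.103 in EAE and 5.99, 6.07 and 6.25 in control cords, with overlap and no call (log2 difference 0.16, 95% confidence interval -0.09 to 0.40, adjusted p = 0.335). The 2 Tap1 probe sets therefore gave different results, and why was not tested. Tap2 probe set 102873_at had 7.25, 6.47, 7.03, 7.20 and 6.34 in EAE and 4.92, 4.76 and 4.70 in control cords, without overlap. It was 4.35-fold higher in EAE (95% confidence interval 3.37 to 5.63, log2 difference 2.12, standard error 0.144, adjusted p = 0.00142), and EAE arrays 2 and 5 were its lowest.

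Tapbp (tapasin, which holds the heavy chain to TAP) had 3 probe sets, all called higher but by different amounts. Probe set 100154_at had log2 signals of 8.12, 9.14, 8.55, 8.53 and 9.60 in EAE and 6.48, 6.61 and 6.92 in control cords (log2 difference 1.93, standard error 0.200, adjusted p = 0.00491). Here EAE arrays 5 and 2 were the highest, which were the lowest for Tap2. Probe set 162104_f_at had 7.46, 7.38, 7.03, 7.54 and 7.51 in EAE and 6.73, 6.65 and 6.83 in control cords (log2 difference 0.55, standard error 0.126, adjusted p = 0.0394). Probe set 102689_at had 6.27, 6.84, 7.76, 6.31 and 6.82 in EAE and 5.88, 5.82 and 5.95 in control cords (log2 difference 1.07, standard error 0.266, adjusted p = 0.0497). The last of these passed narrowly: without EAE or control array 3 its difference was 0.71 (adjusted p = 0.131), and without array 2 of either group its adjusted p was 0.144. Without array 1 or array 2 of either group 162104_f_at was not called either (adjusted p = 0.104 and 0.151).

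**Figure D2:**
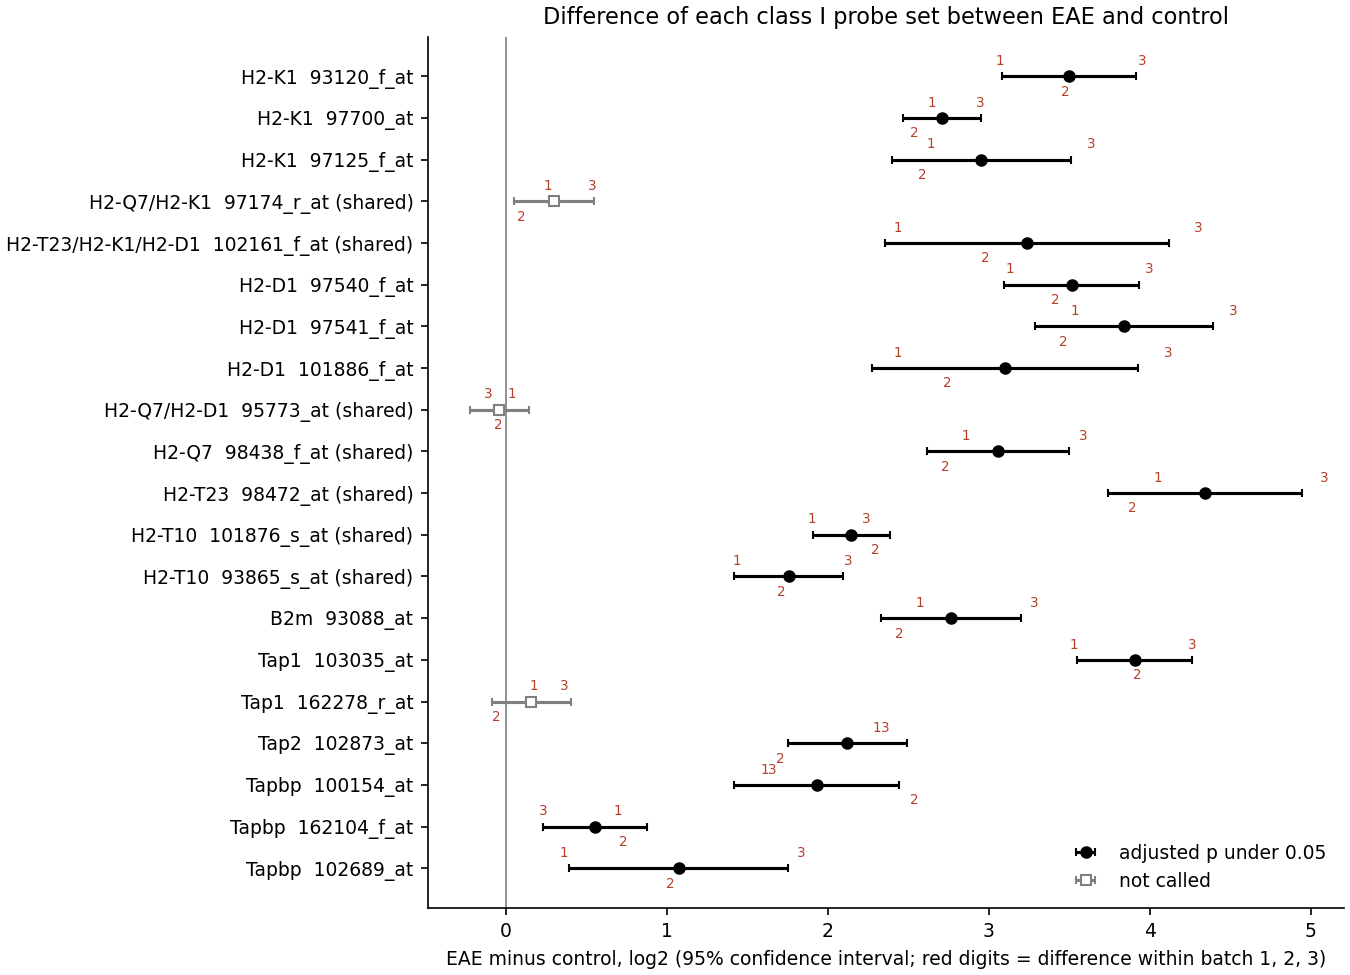
Difference between EAE and control in log2 signal (x axis) for each of the 20 class I probe sets (y axis), with the 95% confidence interval and, in red, the difference within batches 1, 2 and 3. The 17 called probe sets lie right of 0 and the 3 that were not called lie near it, and the probe sets of Tap1 and of Tapbp lie far from each other.

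The direction was the same within each of the 3 batches that held both groups for 18 of the 20 probe sets, all 17 called ones among them. The share of all probe sets with 1 direction in these batches was not counted. The calls were made from the same 3 batches, so this agreement adds no separate support to them. The median over the 9 genes was 2.88, 2.73 and 3.56 on the log2 scale in batches 1, 2 and 3. It was 3.09, 3.41 and 3.92 for the heavy chain genes and 2.46, 2.49 and 2.79 for the assembly genes. EAE arrays 4 and 5 had no control in their batch and did not enter the estimates with batch as a block, but they too lay above all control arrays in the 18 probe sets without overlap.

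The EAE arrays differed among themselves in the heavy chains. Array 3, the pool killed on day 17, was the highest EAE array in 15 of the 20 class I probe sets. Among the 17 called ones it was the highest in 13, whereas it was the highest in 31.5% of the 1026 probe sets called higher. It was the highest in all 11 called heavy chain probe sets and in 3 of the 7 assembly probe sets. These 3 include Tap1 162278_r_at, which was not called. In the called heavy chain probe sets it lay 0.42 to 1.76 above the mean of the other EAE arrays on the log2 scale (median 0.75), against a median of 0.03 over all probe sets called higher. Array 5 was the lowest EAE array in 7 of these 11. Array 3 also had the lowest 3′ minus 5′ difference of all arrays, a measure of RNA quality, for Gapdh (0.46) and beta-actin (1.11). It is 1 pool, so day of EAE, pool and RNA quality cannot be told apart in it. Control array 3 shared its batch, and the median heavy chain difference within batch 3 was 3.92, against 3.09 and 3.41 within batches 1 and 2. The part of batch was not tested. The mean log2 signal of the macrophage and microglia markers was also highest on array 3, at 8.69, against 8.22 to 8.35 on the other EAE arrays. Its part in the heavy chain values was not tested.

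**Figure D3:**
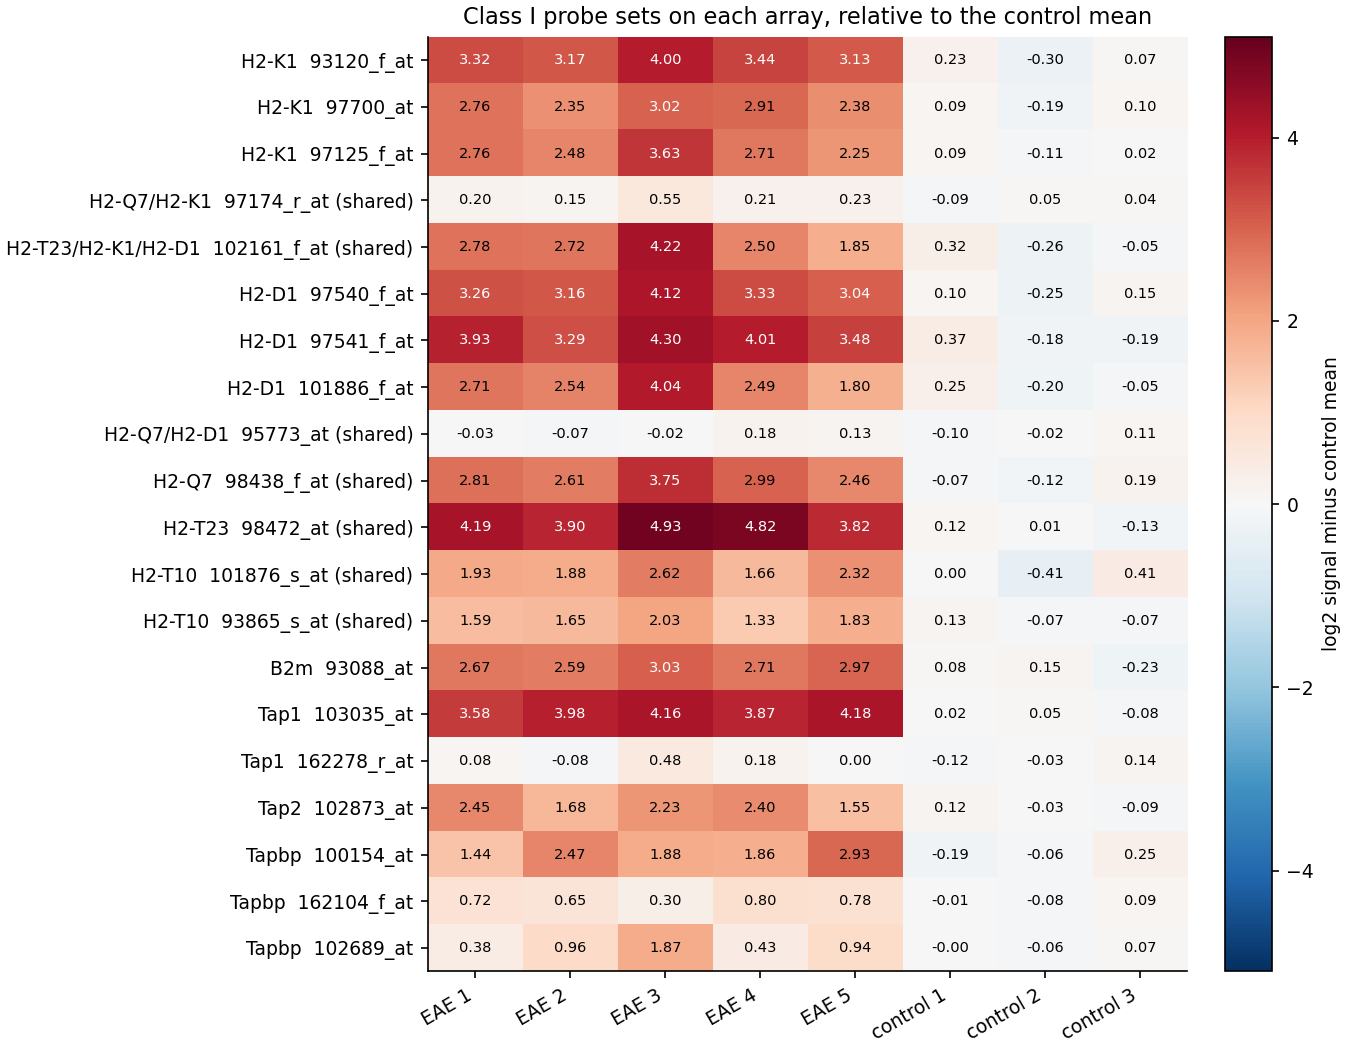
Log2 signal of each class I probe set (rows) on each array (columns, 5 EAE then 3 control) minus the mean of the 3 control arrays, with red for higher and blue for lower. The column of EAE array 3 holds the highest EAE value in 15 of the 20 rows.

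Other genes of the pathway were read from 4 lists, without the probe sets described above. For the counts in these lists, the shares over all probe sets were 8.26% called higher and 11.4% called lower. Of 18 genes of peptide supply and endoplasmic reticulum chaperones, 8 were higher and 1 lower in EAE, with a median log2 difference of 0.03. The largest was that of Psmb8, a catalytic subunit of the immunoproteasome, which had log2 signals of 9.45, 9.68, 10.13, 9.45 and 9.99 in EAE and 5.14, 4.92 and 4.95 in control cords (log2 difference 4.75, standard error 0.171, adjusted p = 0.000286). Psmb9, its partner subunit, had a log2 difference of 3.53, and the proteasome activator subunits Psme1 and Psme2 had 2.12 and 1.46, with Psme2 on a probe set shared with Psme2b. The lower one was Npepps, a cytosolic aminopeptidase (log2 difference -0.37, standard error 0.0641, adjusted p = 0.0193). The chaperones Calr and Canx, which bind class I during folding, were not called (log2 differences 0.05 and -0.12), while Pdia3, their partner in the loading complex, was higher by 0.39. Calr, Canx and Pdia3 were named after their values were seen.

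Of 17 genes of class I transcription and interferon signalling, 8 were higher and none lower (0), with a median log2 difference of 0.36. Irf1, a transcription factor that binds class I promoters, had log2 signals of 9.17, 9.72, 9.35, 9.28 and 9.82 in EAE and 6.46, 6.43 and 6.52 in control cords (log2 difference 2.94, standard error 0.127, adjusted p = 0.000421). Irf8, a factor of myeloid cells, had a log2 difference of 2.23, Irf9, part of the factor activated by type I interferon, 1.72, and Socs1, an inhibitor of interferon signalling, 1.08. Unlike the heavy chains, Irf1 was highest on EAE arrays 5 and 2. The cytokine genes Ifng and Ifnb1, named after their values were seen, were not called (log2 differences 0.35 and 0.00, adjusted p = 0.127 and 0.998). Both had low log2 signals, below the array medians of 6.08 to 6.12, so a change could be missed. Ifng lay at 4.77 to 5.36 in EAE and 4.45 to 4.78 in control cords, and Ifnb1 at 4.47 to 4.76 and 4.60 to 4.69.

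Of 19 probe sets for other class I and class I-like molecules, 9 were higher and none lower (0), with a median log2 difference of 0.35. H2-Q4 had a log2 difference of 3.19 (standard error 0.426, adjusted p = 0.00984), H2-Q2, on a probe set shared with H2-K2, 2.84 (standard error 0.608, adjusted p = 0.0339), H2-Q5 1.86 and H2-Bl 1.30. H2-Q2 had log2 signals of 6.08, 5.08, 8.28, 5.70 and 4.21 in EAE and 3.74, 3.60 and 3.59 in control cords. Array 3 was thus the highest and array 5 the lowest of the EAE arrays here too. Of 14 probe sets for receptors that bind class I, 6 were higher and none lower (0), with a median log2 difference of 0.10. Lilrb4a, an inhibitory receptor of myeloid cells for which class I is not an established ligand, was on a probe set shared with Lilr4b. It had 7.75, 7.30, 7.47, 8.02 and 7.63 in EAE and 3.73, 3.71 and 3.63 in control cords (log2 difference 3.82, standard error 0.101, adjusted p = 0.000143). Pirb, another inhibitory receptor, had a log2 difference of 1.42, Klra2, a Ly49 receptor, 0.89, and Cd8b1, a chain of the CD8 co-receptor, 0.44 (standard error 0.107, adjusted p = 0.0466). The other CD8 chain, Cd8a, named after its value was seen, was not called (log2 difference 0.11, adjusted p = 0.311).

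**Figure D4:**
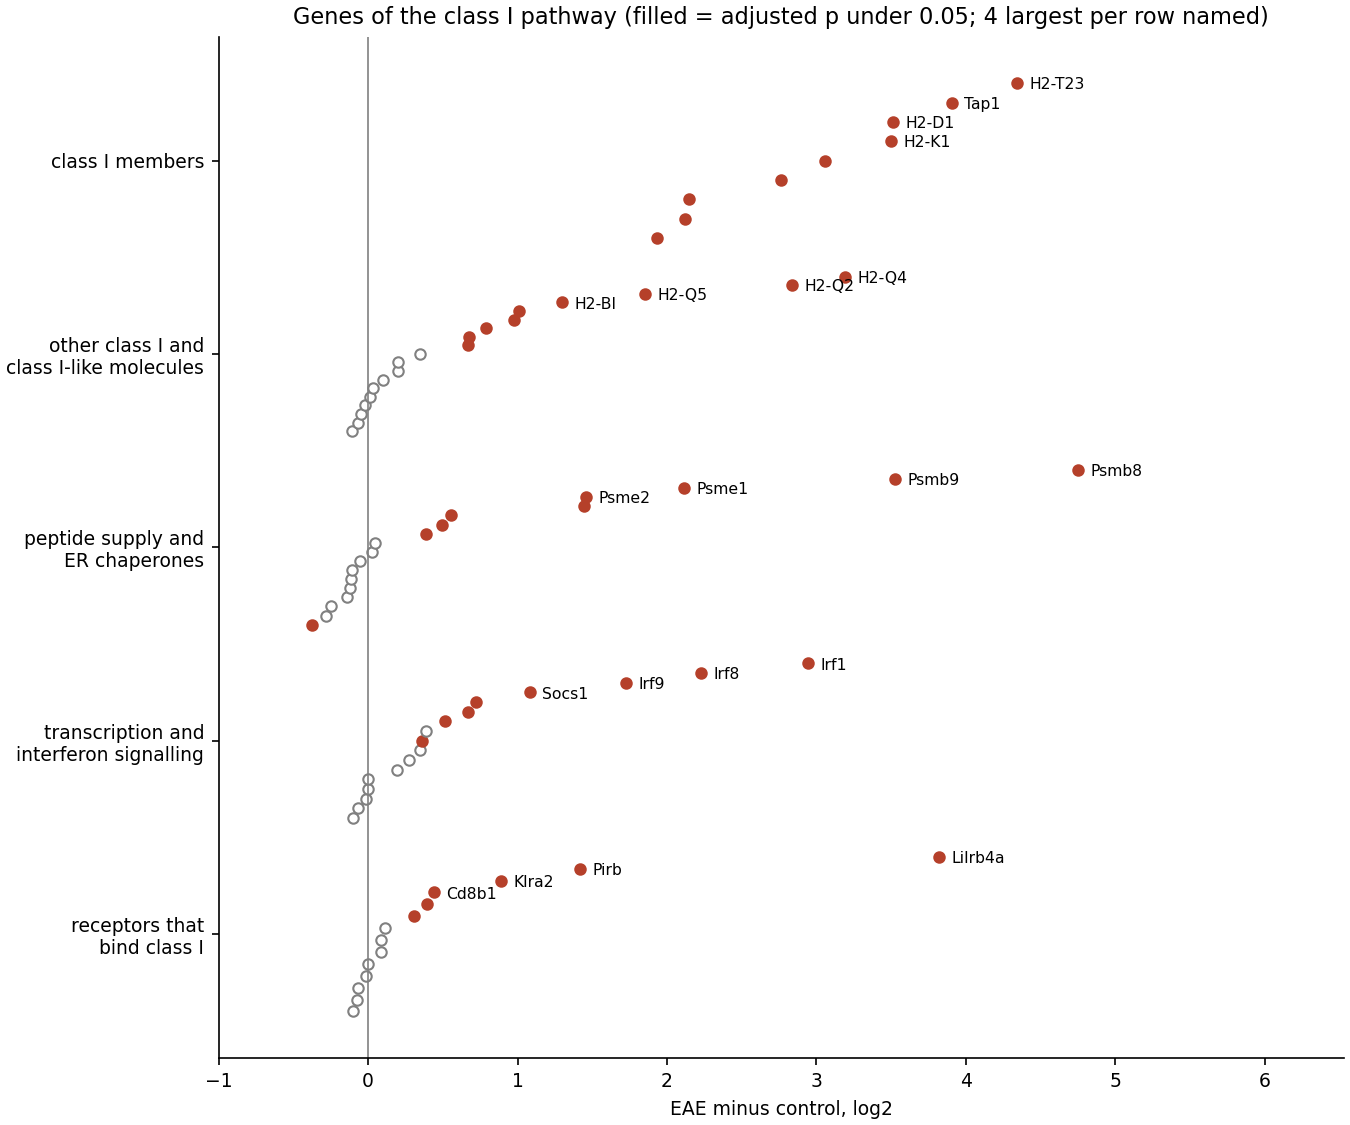
Difference between EAE and control in log2 signal (x axis) for the genes of the class I pathway in 5 groups (rows), 1 point for each gene, filled where the adjusted p was under 0.05, with the 4 largest of each row named. All 9 points of the first row are filled and lie at 1.93 or above, while the other rows hold 6 to 9 filled points each and run on to 0 or below.

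The genes whose profile over the 8 arrays was nearest to the mean profile of the 9 class I genes were Vcam1, an adhesion molecule of inflamed endothelium (root mean square difference 0.183 on the log2 scale), Itgb2, the beta chain of the leukocyte integrins (0.229), Ms4a6c (0.231), Ifit3, an interferon-induced gene (0.240), and Fpr2, a formyl peptide receptor of phagocytes (0.241). They were sought among the probe sets with 1 gene symbol. Relative to the control mean, the class I profile was 2.85, 2.83, 3.41, 3.01 and 2.93 on EAE arrays 1 to 5, and Vcam1 was at 2.65, 2.38, 3.32, 2.93 and 3.01.

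Markers of several cell types also differed between EAE and control cords, in number and direction that varied by cell type. The macrophage and microglia list had 14 of 16 genes higher, with mean log2 signals of 8.22 to 8.69 on EAE and 6.20 to 6.28 on control arrays. Of 14 T cell and NK cell markers 5 were higher (5.58 to 5.66 on EAE and 5.29 to 5.35 on control arrays), as were 5 of 9 neutrophil markers (6.60 to 7.02 on EAE and 5.47 to 5.55 on control arrays) and 3 of 10 endothelial markers. None of 8 B cell markers was called by limma (0, with 1 higher and 1 lower at an unadjusted p under 0.05). The cord's own markers were present in both groups, with 5 of 9 neuron markers lower in EAE (8.69 to 8.93 on EAE and 9.49 to 9.59 on control arrays), 1 of 6 oligodendrocyte markers lower and 1 of 5 astrocyte markers higher. Over all probe sets 8.26% were called higher and 11.4% lower, so 1 call in a short list carries little weight. The part of these cell types in the class I differences was not tested. The 3′ minus 5′ difference of the Gapdh control probe sets, a measure of RNA quality, was 1.46, 0.65, 0.46, 2.07 and 0.78 on EAE arrays 1 to 5 and 0.53, 0.97 and 0.93 on control arrays 1 to 3. EAE arrays 1 and 4 were the highest of these, and array 4 does not enter the fit with batch as a block. In a fit without the block and without both arrays, the same 17 class I probe sets were called higher, against 992 of all 12422 probe sets.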

How the data were processed

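RNA of 8 spinal cord pools was hybridized to MG U74Av2 arrays. The authors deposited log2 values, made in Partek by RMA with quantile normalization and a GC adjustment, whose versions are not given in the sources used here. They were used without further normalization (array medians 6.08 to 6.12). Each probe set was fitted on treatment and batch, the terms of the study's 2 way analysis of variance, by lmFit and eBayes of limma 3.58.1 (R 4.3.3), which left 2 residual and 3.05 prior degrees of freedom. The 66 array control probe sets were left out, dim probe sets were kept, and p values were two-sided and adjusted by the Benjamini-Hochberg method over 12422 probe sets, with a threshold of 0.05. Within a batch the single EAE and control arrays were subtracted. For arrays, their number limits the precision.

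The labels give each array a batch equal to its replicate number, which pairs arrays 1, 2 and 3 of each group. Correlations of the paired deviations from the group means were 0.302, -0.231 and 0.412. No 2 arrays were duplicates. Each array is a pool of 2 animals, so spread between single animals was not measured.

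Probe sets were named from the array's annotation, in which 10833 had 1 symbol, 396 several and 1193 none, and gene identifiers of 10817 matched the RefSeq gene table (0 symbols changed). A gene was represented by its brightest probe set (highest mean of all arrays) among those with only its symbol, or, where it had none, among those that include it. The genes named are all members, up to 4 called genes with the largest difference in each related list, and the 5 nearest profiles. Calr, Canx, Pdia3, Ifng, Ifnb1 and Cd8a were added after their values were seen. The members, lists and tests were chosen with earlier results of these data known. Promoter sequences are from RefSeq, and the promoters of H2-L, Tap2 and H2-T10 and the protein sequences were not used here. The fit was first tested on simulated data. Alternatives were no batch term, a random batch block, no moderation of variances, an intensity trend, a robust prior, array weights, centring on medians, a second quantile normalization, only the brighter probe sets, a stricter threshold, other summaries of a gene's probe sets, and omission of each array. Leaving out EAE arrays 1 and 4, with and without the batch block, was added after seeing the data. Figures were drawn with matplotlib 3.10.9.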

Additional observations from a re-analysis of the deposited data

Results flagged for a closer look

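The 5 EAE arrays were examined for 35 values (the 20 class I probe sets and the means of the gene lists), and in 5 of these 1 array stood apart from the others by more than the limit of Dixon's test, which chance passes in about 1 of 20 groups. Array 3 was high in 3 of them. On the shared probe set 97174_r_at (H2-Q9, H2-Q7, H2-Q10 and H2-K1) it had a log2 signal of 7.40, with the others at 6.995 to 7.08. On H2-D1 probe set 97540_f_at it had 11.37, with the others at 10.29 to 10.57. In the mean of the macrophage and microglia markers it had 8.69, with the others at 8.22 to 8.35. EAE array 1 was high in the mean of the T cell and NK cell markers, at 5.66 with the others at 5.58. EAE array 4 was high in the mean of the B cell markers, at 6.05 with the others at 6.01.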

How the results depend on the processing

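All 17 called class I probe sets kept their direction under every alternative run. Of these, 15 lost their call only without moderation of the variances. With the block, leaving out EAE array 4 or 5 gives the reported estimates again, and leaving out either array of batches 1 to 3 gives the same fit. Counting such repeats once, Tapbp 102689_at lost its call in 7 of 14 alternatives and Tapbp 162104_f_at in 4 of 14. With the replicate block left out 16 of 17 were called, and with a random block 17, while 1062 and 1205 of all 12422 probe sets were higher. Without moderation, which leaves 2 degrees of freedom, 0 of 20 probe sets and 0 of 9 genes were called, with 15 and 9 higher at an unadjusted p under 0.05 and 1 of all 12422 probe sets called. The 4 related lists then had 0 called (6 class I-like, 6 peptide supply, 7 transcription and 7 receptor genes higher unadjusted). At an adjusted p under 0.01 the higher counts were 4 class I-like, 5 peptide supply, 4 transcription and 3 receptor genes. Of all 12422 probe sets 540 were then higher and 290 lower, in place of 1026 and 1412. At that threshold 0 peptide supply genes were lower, as with an intensity trend (0) and without the block and EAE arrays 1 and 4 (0). In the last 2 settings 1365 and 1045 of all probe sets were lower. Among brighter probe sets 5 of the 7 class I-like genes kept and the 1 receptor kept were higher, against 714 of all 6211. The assembly median was 2.77 with brighter probe sets, 2.08 with the mean of a gene's probe sets, 1.34 with the probe set of highest control mean and 2.65 without the block and EAE arrays 1 and 4. With the mean of probe sets the heavy chain median was 3.05 and that of all members 2.12, and with the highest control mean that of all members was 2.14, with 7 of 9 genes called, as Tap1 and H2-Q7 were then read from 162278_r_at and 97174_r_at. The uncalled 95773_at changed sign, to 0.0380 without the replicate block, 0.0213 with a random one and 0.00852 without EAE or control replicate 3 and to 0.0138 without the block and EAE arrays 1 and 4 (-0.0919 to 0.00852 with each array left out). With each array left out, the counts were 15 to 17 probe sets, 9 genes, 6 to 9 class I-like, 4 to 8 higher and 0 to 1 lower peptide supply, 3 to 8 transcription and 2 to 6 receptor genes, and the medians 2.80 to 3.22 (members), 3.28 to 3.69 (heavy chains) and 2.30 to 2.63 (assembly). The lowest counts of transcription (3), peptide supply (4) and receptor genes (2) came without EAE or control array 3, when all probe sets called higher were 521 and lower 225, in place of 1026 and 1412. The causes were not tested.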
